A study of Mus musculus with 10 samples.

Results

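Mitochondrial beta-oxidation shortens fatty acids inside mitochondria, and 10 genes that encode its enzymes were followed here in cardiac endothelial cells of mice on a control or a ketogenic diet. The genes were Acadvl, Acadl, Acadm, Acads, Hadha, Hadhb, Hadh, Echs1, Eci1 and Eci2. They were chosen by name as enzymes of the pathway, by a rule that uses no measured value, though earlier results of these data were known, and were found by matching Ensembl identifiers to symbols in a table of read counts for 46983 genes. All 10 were found, each under 1 identifier, and all 10 had enough reads to be tested.

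RNA was taken from CD31+ cells, captured from mouse hearts with magnetic beads that carry an antibody to CD31, a surface protein of endothelial cells. All mice were male wild-type C57BL/6J animals, and feeding began at 8 weeks of age. For 14 days, 5 mice ate a control diet with 11.6% of its energy as fat, and 5 ate a ketogenic diet with 89.5% of its energy as fat. Each mouse gave 1 sequenced library, read as single 50-base reads from full-length cDNA without strand information. Cells caught by such beads are enriched for endothelial cells and are not a pure population. In RNA of a whole sample, more cells of a type and more RNA per cell cannot be told apart.

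Each turn of beta-oxidation removes an acetyl unit from an acyl-CoA in 4 reactions. An acyl-CoA dehydrogenase makes a double bond, a hydratase adds water to it, a 3-hydroxyacyl-CoA dehydrogenase oxidises the product, and a thiolase cuts it. The dehydrogenases of the first reaction differ in the chain length they prefer, and they pass their electrons to electron transfer flavoprotein. The trifunctional protein of the inner membrane carries out the remaining 3 reactions on long chains, and separate matrix enzymes act on short ones. Unsaturated fatty acids also need isomerases that move the double bond. The heart muscle obtains much of its ATP by this pathway, whereas endothelial cells are known for strong glycolysis and use fatty acids for other purposes as well. Many genes of the pathway are known targets of the PPAR family of nuclear receptors, which bind fatty acids.

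Between 10885154 and 12206734 reads were counted on genes per control mouse, and between 11108020 and 12710861 per ketogenic mouse. The 15 endothelial markers summed to 6884 to 7310 CPM (read counts scaled to the mouse's total) on the control diet and 6671 to 7328 on the ketogenic diet, and none of them passed the test. Pecam1, which encodes CD31, had a log2 fold change of -0.09 (adjusted p = 0.288), and Cdh5, the endothelial cadherin, of -0.04 (adjusted p = 0.571). The library of control mouse 1 stood apart in macrophage markers, whose sum was 752 CPM in this mouse, against 195 to 311 CPM in the other 4 control mice and 167 to 322 CPM in the ketogenic mice. All 9 macrophage markers had a negative log2 fold change, with a median of -1.48. Of them, 4 had an unadjusted edgeR p under 0.05, against 17.8% of all tested genes in either direction. In C1qa, C1qb, C1qc, Adgre1 and Itgam, control mouse 1 was far above every other mouse. C1qa was at 323 normalized counts in it, 8.58 to 31.2 in the other 4 control mice and 6.91 to 25.3 in ketogenic mice. The median therefore cannot be read as a difference of the diets alone. None of the macrophage, fibroblast, mural or erythroid markers passed the test. Of the lymphocyte markers, Cd79a, a B cell receptor subunit, was lower on the ketogenic diet (log2 fold change -0.46, edgeR adjusted p = 0.0221). Raw counts of some markers hardly varied between mice, at 97 or 98 reads for the erythroid marker Hba-a1 and 6770 to 7020 for Pecam1. For such genes the lack of a call does not show that cell numbers were equal. The 8 mural markers summed to 2507 to 2676 CPM on the control diet and 2445 to 2698 CPM on the ketogenic diet. The 9 fibroblast markers summed to 1052 to 1164 CPM and 1030 to 1200 CPM. Brown and white adipocyte genes had few reads, with 0 to 6 reads per mouse for Ucp1 and 0 to 9 for Adipoq. Of the 6 adipocyte markers, only Cidea had enough reads to be tested. Cidea had 6 to 14 reads in control mice and 13 to 38 in ketogenic mice. With a log2 fold change of 1.08 and an unadjusted edgeR p under 0.05, it did not pass the test. The cardiomyocyte markers are described with the results they touch. No cell type marker list had a higher summed level on the ketogenic diet without overlap between the diets. The lymphocyte list was lower without overlap, at 256 to 372 CPM on the control diet and 210 to 255 CPM on the ketogenic diet.

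All 10 enzyme genes had a positive log2 fold change, ketogenic over control, and Acadl alone passed the test. After TMM scaling, edgeR's quasi-likelihood F-test was run on the 15949 genes with enough reads, with Benjamini-Hochberg adjustment over all of them. The call was an adjusted p under 0.05, which 213 genes, or 1.34% of those tested, met. Of the tested genes, 0.809% met it and were higher on the ketogenic diet. At an unadjusted p under 0.05, 5 of the 10 genes were higher, against 8.57% of all tested genes that were higher and 17.8% that differed in either direction. The 5 were Acadl, Acads, Hadha, Hadh and Eci2. DESeq2, run on the same counts, called 3 of the 10, Acadl, Acads and Eci2, against 5.61% of the genes it tested. A fold change above 0 was seen for 48.6% of all tested genes.

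The differences were small apart from that of Acadl. The median log2 fold change of the 10 genes was 0.10, and of the 9 without Acadl it was 0.09, beside a median of -0.01 and quartiles of -0.12 and 0.11 over all tested genes. The lowest value was 0.01 for Acadvl and the highest 0.52 for Acadl. In 3 genes, Acadl, Hadha and Eci2, every ketogenic mouse lay above every control mouse, which held for 2.4% of all tested genes, and 4.34% were apart in either direction. The summed level of the 10 genes was 1234 to 1284 CPM on the control diet and 1360 to 1432 CPM on the ketogenic diet, so the sums of the diets did not overlap. Each mouse's median deviation of the 10 genes from the control mean lay between -0.03 and 0.01 on the log2 scale in control mice, and between 0.08 and 0.17 in ketogenic mice. Ketogenic mouse 3 was the highest, and all 10 of its genes were above the control mean.

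**Figure D1:**
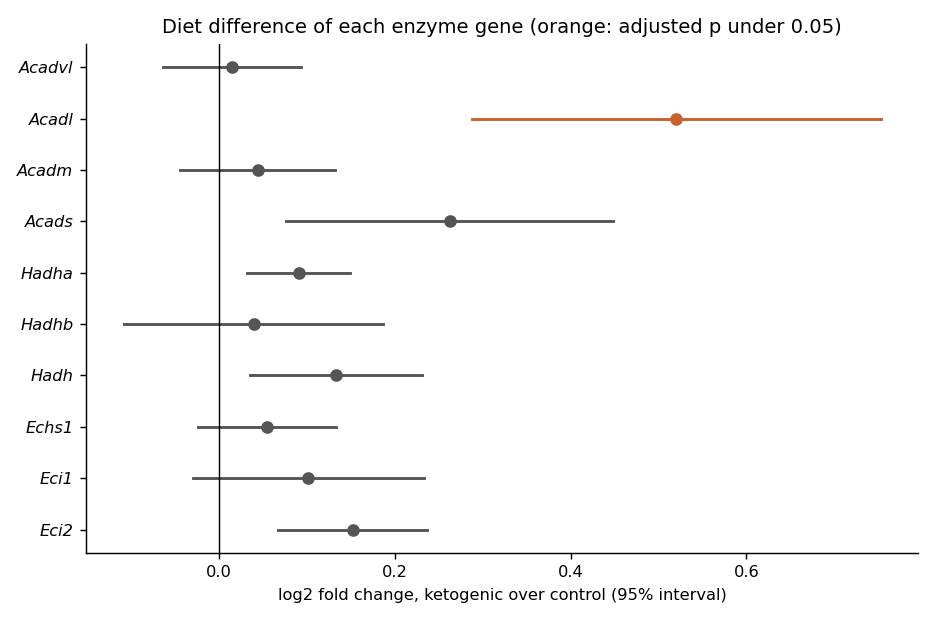
Log2 fold change of the 10 enzyme genes, ketogenic over control, on the horizontal axis, with the 95% interval of the edgeR fit over 5 mice per diet. Acadl, at 0.52 with an interval of 0.29 to 0.75, is the only gene with an adjusted p under 0.05, and the intervals of Acadvl, Acadm, Hadhb, Echs1 and Eci1 include 0.

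The enzymes were not equally abundant. Levels are given here as reads per kilobase of the principal transcript in GENCODE release M21, scaled as CPM, as the mean over the 5 control mice. Hadh was the highest, at 106 ± 4.89 (SD), followed by Echs1 at 94.8 ± 2.92. Eci2 at 74.3 ± 3.65, Hadha at 72.6 ± 1.93 and Acadvl at 72.4 ± 1.26 came next, and each overlapped its neighbour in this order. Eci1 at 63.0 ± 3.21 and Acadm at 61.1 ± 1.17 overlapped as well. Acads at 32.8 ± 4.21 and Acadl at 31.5 ± 3.96 overlapped each other and lay below all of these. Hadhb was the lowest, at 14.8 ± 0.588. The deposited RPKM values divide by other lengths, 0.96 to 5.70 times the principal transcript, and over the control mice they place Eci1 highest, then Hadh and Acadvl, with Hadhb last on either scale.

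**Figure D2:**
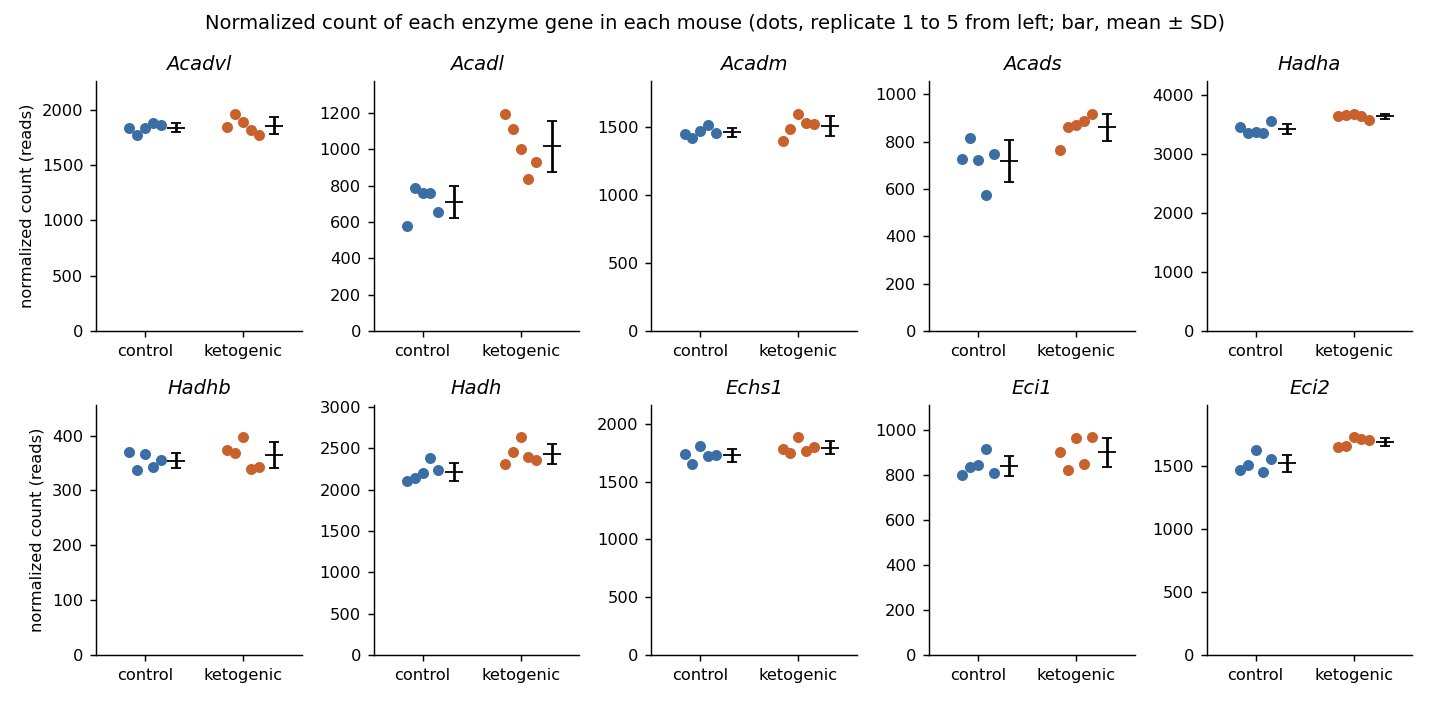
Normalized read count (vertical axis, from 0) of each enzyme gene in each of the 5 control and 5 ketogenic mice, with dots for mice in the order of their replicate numbers and bars for the mean ± SD. The diets are apart in Acadl, Hadha and Eci2 and overlap in the other 7 genes.

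Acadl encodes long-chain acyl-CoA dehydrogenase, a matrix flavoenzyme for long and branched acyl chains. The gene (ENSMUSG00000026003.5) lies on the minus strand at chr1:66830839-66863277 of GRCm38. Its normalized counts were 580.0, 785.6, 758.8, 760.1 and 652.8 in control mice 1 to 5, and 1195, 1109, 1003, 837.7 and 932.1 in ketogenic mice 1 to 5. Every ketogenic mouse was above the highest control mouse, control 2, and the highest of all was ketogenic 1. The mean rose from 707 ± 87.7 to 1015 ± 141 (SD, n = 5 per diet), which is 1.43-fold with a 95% interval of 1.22 to 1.68. The log2 fold change was 0.52 (SE 0.107, edgeR adjusted p = 0.0393), and the exact two-sided permutation test over the 252 groupings of 5 and 5 mice gave p = 0.00794, the smallest it can give. Acadl was 153rd of the tested genes by p. The call was lost in 8 of the 10 fits without 1 mouse: with mice omitted singly, the fold change stayed between 0.46 and 0.58 and the adjusted p lay between 0.0306 and 0.0815. The call remained without ketogenic mouse 2 (adjusted p = 0.0464) or ketogenic mouse 4 (0.0306), and without control mouse 1, the library rich in macrophage markers, the adjusted p was 0.0777. None of the 50-base windows of its principal transcript occurs in another annotated transcript, and the small genes inside its span held at most 4 reads in a mouse.

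The promoter regions of Acadl and Acadm are shown because these dehydrogenases carry out the same reaction on neighbouring chain lengths, and Acadl passed the test while Acadm had a fold change near 0. They are RefSeq sequences of build GRCm38.p6, the 250 bases before each annotated start on the minus strand, at chr1:66863310-66863559 for Acadl and chr3:153944644-153944893 for Acadm. Capitals mark the letters AGGTCA, the half-site that nuclear receptors such as the PPARs recognise, and GGGCGG, the GC box, each on either strand.
Acadl: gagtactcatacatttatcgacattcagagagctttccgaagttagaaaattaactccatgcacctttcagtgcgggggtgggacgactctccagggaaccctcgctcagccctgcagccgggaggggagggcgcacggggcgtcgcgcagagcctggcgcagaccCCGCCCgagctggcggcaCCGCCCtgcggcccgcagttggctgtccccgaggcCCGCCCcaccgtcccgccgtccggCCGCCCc
Acadm: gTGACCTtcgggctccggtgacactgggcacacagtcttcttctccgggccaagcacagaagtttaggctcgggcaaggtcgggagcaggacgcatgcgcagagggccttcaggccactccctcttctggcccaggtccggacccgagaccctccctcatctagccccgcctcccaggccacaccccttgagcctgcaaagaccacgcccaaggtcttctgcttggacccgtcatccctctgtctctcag
The Acadl sequence held 4 GC boxes and no half-site, and the Acadm sequence held 1 half-site, in the reverse orientation near its far end, and no GC box. Over the 250 bases before each start, AGGTCA was present in 3 of the 10 enzyme promoters, those of Acadvl, Acadm and Echs1. It was present in 14% of 32851 promoters of all genes. GGGCGG was present in 8 of the 10, all but Acadvl and Acadm, and in 32.7% of all promoters. A direct repeat of AGGTCA with a single base between the copies was in none of the 10 and in 0.0335% of all. A match of letters is a description of the sequence and not a measured binding site.

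Acadvl encodes very long-chain acyl-CoA dehydrogenase, the membrane-bound enzyme that starts the oxidation of the longest chains taken up as acylcarnitines. The gene (ENSMUSG00000018574.14) lies at chr11:70010183-70015411. Its normalized counts were 1839, 1776, 1837, 1879 and 1860 in control mice, and 1840, 1964, 1889, 1819 and 1774 in ketogenic mice. The diets overlapped completely, with the highest and the lowest mouse both on the ketogenic diet. Its log2 fold change was 0.01 (95% interval -0.06 to 0.09, edgeR adjusted p = 0.866). Part of the transcript, 24.0% of its 50-base windows, lies within Dvl2 on the other strand, a gene with 60 to 100 reads per mouse. Without strand information, reads in that stretch may have gone uncounted, so the level of Acadvl may be too low.

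Acadm encodes medium-chain acyl-CoA dehydrogenase, whose deficiency is a well known inborn error of fatty acid oxidation. The gene (ENSMUSG00000062908.12) lies at chr3:153922357-153944632. Its normalized counts were 1447, 1424, 1471, 1515 and 1460 in control mice and 1402, 1488, 1600, 1532 and 1521 in ketogenic mice. Ketogenic mouse 1 was the lowest of all, although it had the highest Acadl. For Acadm the fit gave 0.04 on the log2 scale (95% interval -0.04 to 0.13, edgeR adjusted p = 0.605).

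Acads encodes short-chain acyl-CoA dehydrogenase, which acts near the end of the chain's breakdown. The gene (ENSMUSG00000029545.13) lies at chr5:115110299-115119346. Its normalized counts were 725.8, 817.1, 722.5, 573.7 and 747.3 in control mice and 766.7, 861.5, 870.8, 886.3 and 918.5 in ketogenic mice. Among the ketogenic mice, 4 were above every control mouse, and ketogenic 1 was below control 2. With a log2 fold change of 0.26 (SE 0.0854, 95% interval 0.08 to 0.45), Acads came next after Acadl, and it missed the threshold (edgeR adjusted p = 0.143). The exact two-sided permutation test for this gene alone gave p = 0.0159.

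Hadha encodes the alpha subunit of the mitochondrial trifunctional protein, with the hydratase and the long-chain 3-hydroxyacyl-CoA dehydrogenase, and Hadhb the beta subunit, with the long-chain thiolase. The genes lie head to head on chromosome 5 of GRCm38, Hadha (ENSMUSG00000025745.11) on the minus strand at chr5:30118304-30155162 and Hadhb (ENSMUSG00000059447.13) on the plus strand at chr5:30155248-30184593. Only 85 bases separate their annotated starts, at chr5:30155163-30155247, and they are shown as the stretch that both subunit genes have upstream. The bases are from the RefSeq promoter sequences of GRCm38.p6, plus strand. Capitals mark the GC boxes, of which there are 2, and no AGGTCA half-site was found.
Hadha-Hadhb gap: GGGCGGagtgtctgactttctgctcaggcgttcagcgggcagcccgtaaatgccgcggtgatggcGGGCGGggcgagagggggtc

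The counts of Hadha were 3449, 3353, 3372, 3349 and 3551 in control mice and 3642, 3662, 3678, 3631 and 3567 in ketogenic mice. The diets did not overlap, although ketogenic 5 was close above control 5. The log2 fold change of Hadha was 0.09 (SE 0.0270, 95% interval 0.03 to 0.15), which is 6.47% higher, and it missed the threshold (edgeR adjusted p = 0.113). The exact two-sided permutation test gave p = 0.00794 for Hadha alone. The counts of Hadhb were 369, 337, 366, 343 and 356 in control mice and 373, 368, 397, 339 and 344 in ketogenic mice, and the diets overlapped. Its log2 fold change was 0.04 (95% interval -0.11 to 0.19, edgeR adjusted p = 0.802).

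The low level of Hadhb beside its partner subunit cannot be read as a low transcript level. Of the 1999 windows of 50 bases along its principal transcript, 1247, or 62.4%, also occur in another annotated gene, so reads from them cannot be placed on Hadhb alone. The processed pseudogene Gm13910 at chr2:108948806-108950233 holds 1229 of them, and it was given 598 to 732 reads per mouse, more than the 326 to 404 on Hadhb. Its log2 fold change was 0.06 (SE 0.0491, edgeR adjusted p = 0.583), close to that of Hadhb. How reads that match several places were treated is not given in the sources used here.

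Hadh encodes the matrix 3-hydroxyacyl-CoA dehydrogenase for medium and short chains, and Echs1 the short-chain enoyl-CoA hydratase, which also serves the breakdown of valine. Hadh (ENSMUSG00000027984.8) lies at chr3:131233419-131272101, and Echs1 (ENSMUSG00000025465.12) at chr7:140105710-140116476. The counts of Hadh were 2101, 2143, 2202, 2382 and 2242 in control mice and 2315, 2450, 2631, 2389 and 2356 in ketogenic mice. Control 4 lay above ketogenic 1 and 5, and all 5 ketogenic mice were above the control median. Hadh had a log2 fold change of 0.13 (SE 0.0447, 95% interval 0.04 to 0.23, edgeR adjusted p = 0.154), with an exact two-sided permutation p of 0.0238. The counts of Echs1 were 1737, 1650, 1804, 1723 and 1729 in control mice and 1779, 1744, 1883, 1768 and 1802 in ketogenic mice, with a single ketogenic mouse above all control mice. Its log2 fold change was 0.05 (95% interval -0.02 to 0.13, edgeR adjusted p = 0.452).

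Eci1 and Eci2 encode enoyl-CoA isomerases, which shift double bonds of unsaturated fatty acids into the position the pathway needs, and Eci2 is also found in peroxisomes. Eci1 (ENSMUSG00000024132.5) lies at chr17:24426641-24439348, and Eci2 (ENSMUSG00000021417.14) at chr13:34977748-35027096. The counts of Eci2 were 1466, 1504, 1622, 1453 and 1552 in control mice and 1647, 1655, 1725, 1712 and 1701 in ketogenic mice, without overlap. Eci2 had a log2 fold change of 0.15 (SE 0.0388, 95% interval 0.07 to 0.24), or 11.1% higher, with an edgeR adjusted p of 0.0753, the smallest of the 9 uncalled genes. The exact two-sided permutation test gave p = 0.00794 for Eci2 alone. Windows shared with other genes made up 11.3% of the Eci2 transcript, mostly with the antisense gene Gm16984, which had 5 to 16 reads, and with Eci3, which had at most 4. Reads in those windows may also have gone uncounted. The counts of Eci1 were 798, 832, 844, 913 and 808 in control mice and 901, 823, 962, 847 and 966 in ketogenic mice, and they overlapped. Its log2 fold change was 0.10 (95% interval -0.03 to 0.23, edgeR adjusted p = 0.405).

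Ratios of paired enzymes within a mouse show whether their proportions kept. They were taken from the deposited RPKM, with a two-sided exact permutation test on the log2 ratio and adjustment over the 6 ratios. The Acadl over Acadvl ratio was 0.699 to 0.981 in control mice and 1.02 to 1.44 in ketogenic mice, without overlap, a log2 difference of 0.51 (exact permutation p = 0.00794, adjusted p = 0.0476). The ratio of Acadl over Acadm differed by 0.48 (exact permutation p = 0.0159, adjusted p = 0.0476), and that of Acads over Acadm by 0.23 (exact permutation p = 0.0238, adjusted p = 0.0476), both with overlap. The Acadl ratios were chosen with the difference of Acadl known, so they are not separate evidence of it. Hadhb over Hadha differed by -0.05 (exact permutation adjusted p = 0.352), Eci2 over Eci1 by 0.05 (adjusted p = 0.460), and Hadh over Echs1 by 0.08 (adjusted p = 0.131). With mice omitted singly, 0 to 3 of the ratios had an adjusted p under 0.05, and the difference in Acads over Acadm ranged from 0.14, without control mouse 4, to 0.29, without control mouse 2. The smallest unadjusted p that 5 against 4 mice can give is 0.0159.

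The counts of some of these enzymes were high for the length of their transcripts. A gene with a transcript of a given length has that many possible read start positions on each strand. Of the 3770 genes with a mean of at least 1000 reads, 1 had more than 2 reads per base of all its exons and 47 had more than 2 per base of the principal transcript alone, and the highest count of any gene in a mouse was 14973. The counts in the median mouse were 64.4% of the possible starts of the principal transcript for Hadh, 55.8% for Echs1, 45.3% for Eci2, 43.9% for Hadha and 43.0% for Acadvl. They were 38.2% for Eci1, 35.3% for Acadm, 22.0% for Acadl, 21.4% for Acads and 8.63% for Hadhb. Over the 3770 genes with a mean of at least 1000 reads, the median was 30.4%. Some erythroid markers had almost the same count in every mouse, at 97 or 98 reads for Hba-a1 and 439 to 465 for Hbb-bs. The cause was not tested, and whether duplicate reads were removed is not given in the sources used here.

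In counts corrected for reads expected to share a start, the 10 genes again had positive log2 fold changes, and the size of the move depended on the length used. With the length behind the deposited RPKM, which is longer than the principal transcript for 9 of the 10 genes, the median was 0.12, with Hadh at 0.15, Eci2 at 0.16, Echs1 at 0.06 and Acadl at 0.57 (edgeR adjusted p = 0.0357). With the principal transcript, a choice made after seeing the data, the median was 0.14. In it Hadh moved from 0.13 to 0.28 (edgeR adjusted p = 0.0741), Eci2 from 0.15 to 0.23 (adjusted p = 0.0552) and Echs1 from 0.05 to 0.12. Acadl was at 0.59 (adjusted p = 0.0346), and it was again the only one of the 10 that passed, against 1.58% of all genes tested in that fit.

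Cardiomyocyte markers moved with the ketogenic diet in these preparations. Of 16 markers, all tested, none passed the test, 14 had a positive log2 fold change and 11 were higher at an unadjusted p under 0.05, against 8.57% of all tested genes. Their median log2 fold change was 0.34, and none was at 0 reads. Their summed level was 754 to 927 CPM in control mice and 861 to 1237 CPM in ketogenic mice, with overlap. Myh6, the main myosin heavy chain of the adult mouse heart, had 347.8 to 749.4 normalized counts on the control diet and 537.7 to 1033 on the ketogenic diet (log2 fold change 0.55, edgeR adjusted p = 0.237). Tnnt2, cardiac troponin T, had a log2 fold change of 0.10 (adjusted p = 0.569). Of 9 mitochondrial and lipid genes of the muscle type, 8 were tested, and Fabp3, the heart fatty acid-binding protein, rose from 104 ± 10.0 to 154 ± 8.19 normalized counts (SD, n = 5 per diet; log2 fold change 0.57, edgeR adjusted p = 0.0204). The call of Fabp3 was lost without control mouse 3 or ketogenic mouse 4, with adjusted p of 0.0243 to 0.0536 over the fits with a mouse omitted. With the cardiomyocyte score in the fit, Fabp3 was at 0.47 (adjusted p = 0.219). The median of the 8 genes was 0.39.

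The enzymes were also set beside the cardiomyocyte markers mouse by mouse. Each mouse was given a cardiomyocyte score, the mean of the 16 markers' z-scores of log2 CPM. Control mice scored -0.93, -1.07, 0.10, -0.30 and -0.41, and ketogenic mice -0.52, 0.75, 1.22, 0.87 and 0.28. Ketogenic mouse 1 had the lowest score of its diet, below 3 of the control mice, and the highest Acadl of all mice. Every other ketogenic mouse scored above all control mice. Eci2 was also above every control mouse in ketogenic mouse 1, and its highest value was in ketogenic mouse 3, which had the highest score. Acadm, Hadha, Hadhb, Hadh and Echs1 also had their highest value in ketogenic mouse 3. The highest value of Acadvl was in ketogenic mouse 2, and that of Acads and of Eci1 in ketogenic mouse 5.

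**Figure D3:**
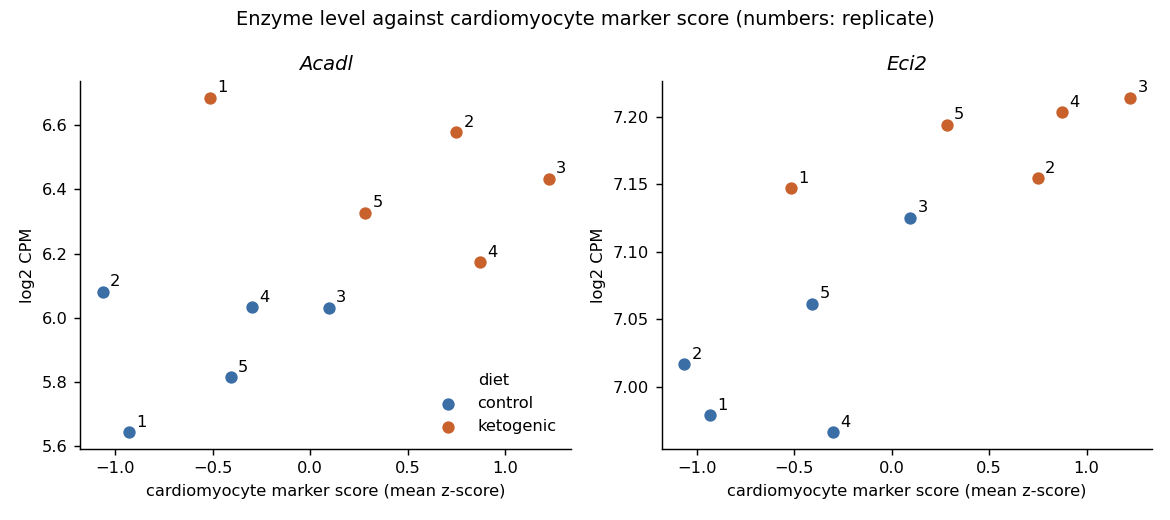
Log2 CPM of Acadl (left) and Eci2 (right) on the vertical axes against the cardiomyocyte marker score of each mouse, 5 mice per diet, with the replicate number beside each point. Ketogenic mouse 1, at a score of -0.52, has the highest Acadl, and ketogenic mouse 3, at 1.22, has the highest Eci2.

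Adding the score to the edgeR fit gave Acadl a log2 fold change of 0.60 with an adjusted p of 0.148, so its size did not shrink and its call was lost. In that fit, 31 genes, 0.194% of those tested, had an adjusted p under 0.05, and none of the 10 enzymes did. Acads kept 0.26, Hadha 0.08 and Eci1 0.08. Hadh went from 0.13 to 0.04, Eci2 from 0.15 to 0.10 and Echs1 from 0.05 to 0.01, and Acadvl and Acadm turned to -0.02 and -0.04. The score and the diet overlap in these 10 mice. The part of the cardiomyocyte RNA in the differences, that of Acadl included, therefore cannot be told apart from that of the diet.

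**Figure D4:**
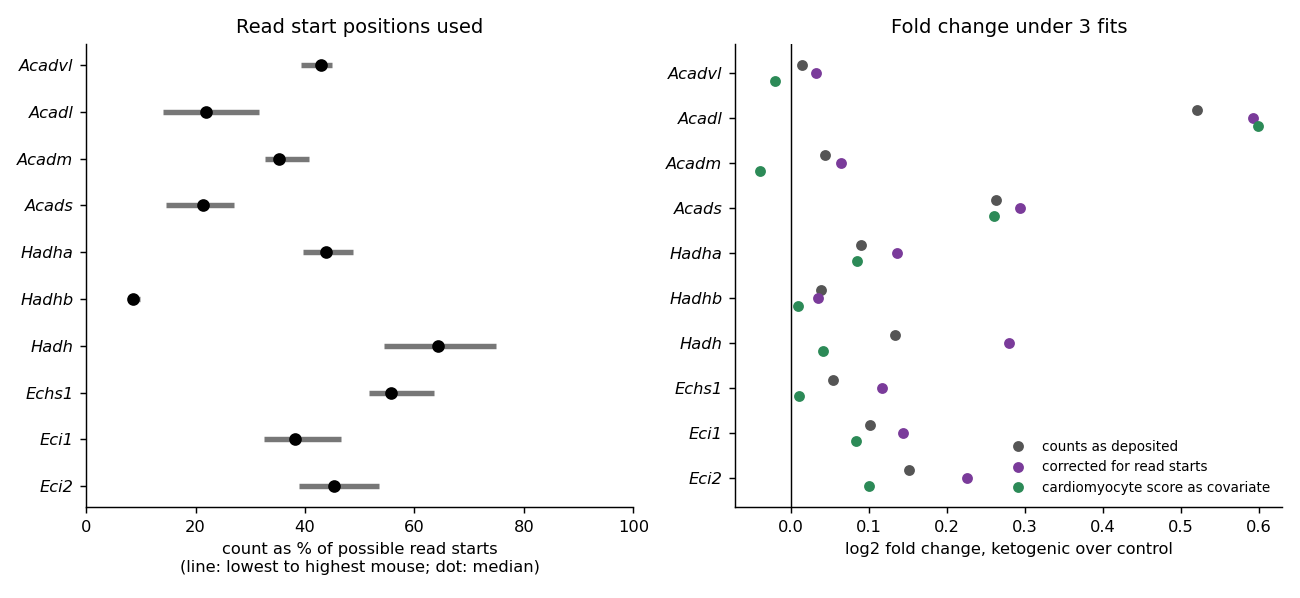
Left, the count of each enzyme gene as a percentage of the read starts possible on its principal transcript, with a line from the lowest to the highest of the 10 mice and a dot at the median. Right, log2 fold change, ketogenic over control, from counts as deposited, from counts corrected for shared starts, and with the cardiomyocyte score in the fit; Acadl stays between 0.52 and 0.60, and Hadh spans 0.04 to 0.28.

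Of the rest of the mitochondrial pathway, 13 further genes were listed and 12 tested, and Decr1 passed. Decr1 encodes 2,4-dienoyl-CoA reductase, the auxiliary enzyme for polyunsaturated chains. Its normalized counts were 659.9, 714.1, 800.2, 868.5 and 826.8 in control mice and 1041, 959.8, 1249, 1088 and 1113 in ketogenic mice, without overlap. Decr1 had a log2 fold change of 0.49 (SE 0.0857, edgeR adjusted p = 0.0190), and the call was lost when control mouse 2 was left out (adjusted p = 0.0611). With the cardiomyocyte score in the fit, Decr1 was at 0.35 (adjusted p = 0.238). Acaa2, the matrix thiolase that completes the turn for medium chains, had a log2 fold change of 0.13 (adjusted p = 0.176) in the counts as deposited. In the corrected counts Acaa2 was at 0.40 and passed the test, with an adjusted p of 0.0389 for the deposited length and 0.0417 for the principal transcript. The median of the 12 was 0.10.

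Electrons of the acyl-CoA dehydrogenases pass to electron transfer flavoprotein, of subunits Etfa and Etfb, and from it to its ubiquinone oxidoreductase, Etfdh. Their log2 fold changes were 0.12 for Etfa (edgeR adjusted p = 0.294), 0.14 for Etfb (0.296) and 0.12 for Etfdh (0.252), so none of the 3 passed. In each of the 3 genes the counts of the diets overlapped.

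The carnitine shuttle brings long chains into mitochondria, and of its 6 genes 5 were tested and Slc25a20 passed in edgeR. Slc25a20 encodes the carnitine-acylcarnitine translocase of the inner membrane. Its normalized counts were 848.9, 1188, 1074, 1005 and 1114 in control mice and 1337, 1286, 1534, 1479 and 1437 in ketogenic mice, without overlap. The log2 fold change of Slc25a20 was 0.43 (SE 0.0827, edgeR adjusted p = 0.0299), and the call was lost in 5 of the 10 fits with a mouse left out, with adjusted p of 0.0205 to 0.0714. Those 5 were without control mouse 3 or 4, or without ketogenic mouse 3, 4 or 5. With that score in the fit, Slc25a20 was at 0.36 (adjusted p = 0.265).

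Cpt1a, the outer membrane carnitine palmitoyltransferase found in most tissues, had a log2 fold change of 0.27 (edgeR adjusted p = 0.112), and its counts did not overlap between the diets. Cpt2, the inner membrane transferase, was at 0.18 (edgeR adjusted p = 0.0957), also without overlap, though only barely. Its lowest ketogenic mouse, ketogenic 2, was at 1109.3 normalized counts and its highest control mouse, control 2, at 1108.8. DESeq2 called both, with adjusted p of 0.0232 for Cpt1a and 0.0285 for Cpt2. Cpt1b, the muscle form, had 4 to 7 reads per control mouse and 7 to 13 per ketogenic mouse, too few to be tested. Gm44502 overlaps it on the same strand, and reads in a shared stretch may have gone uncounted, so this low count does not show that the transcript was scarce. Crat had 1117 to 1360 normalized counts on the control diet and 1396 to 1480 on the ketogenic diet, without overlap. Cpt1c had a log2 fold change of -0.01 (edgeR adjusted p = 0.982). The median log2 fold change of the 5 tested shuttle genes was 0.19. At an unadjusted edgeR p under 0.05, 4 of the 5 were higher, against 8.57% of all tested genes.

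General mitochondrial genes had fold changes near 0 in the counts as deposited. Corrected counts were not compared for these genes, so the values do not show that their levels were unchanged. A list of 20, from citrate synthase to subunits of the respiratory chain, had a median log2 fold change of -0.02, with 7 above and 13 below 0, and none had an unadjusted p under 0.05. The 6 genes of the propionyl-CoA branch, which takes up the end of odd chains, had a median of 0.10 and none passed.

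**Figure D5:**
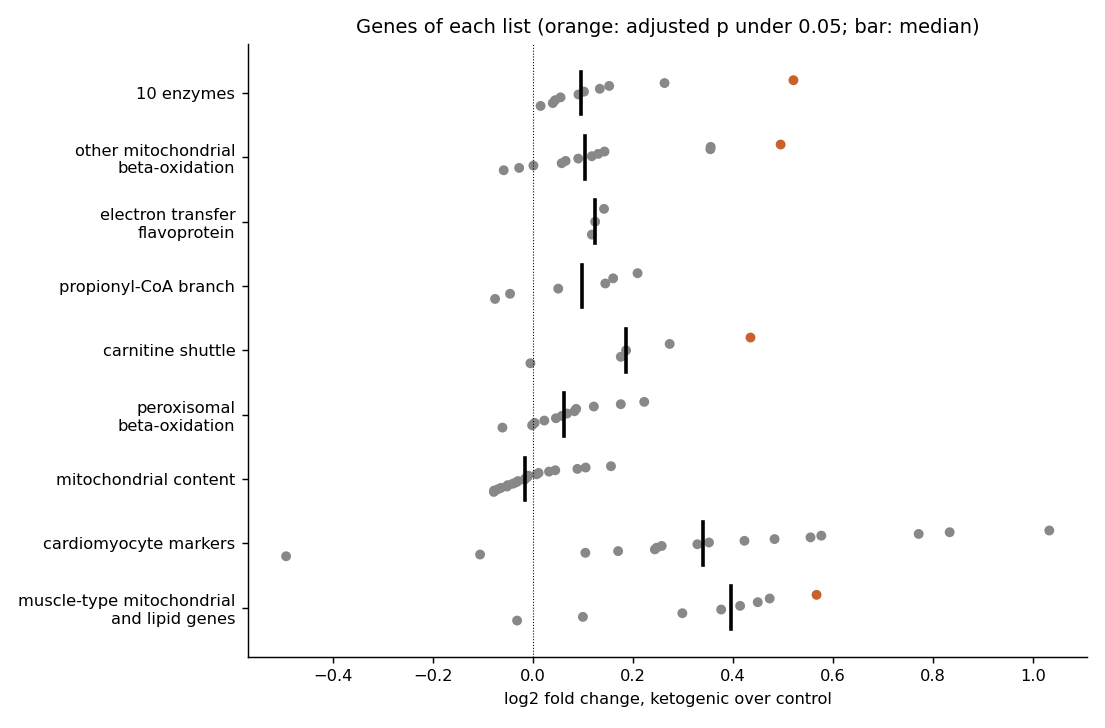
Log2 fold change, ketogenic over control, of every tested gene in each list, with a bar at the median and orange for an adjusted p under 0.05. Acadl, Decr1, Slc25a20 and Fabp3 are the orange points; the list medians are 0.10 for the 10 enzymes, 0.19 for the carnitine shuttle, -0.02 for mitochondrial content and 0.34 for cardiomyocyte markers.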

How the data were processed

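The authors deposited raw counts, whole reads per Ensembl gene and mouse, and RPKM values. Per the labels, the processing notes name bcl2fastq 2.17.1.14, STAR 2.3, HTSeq 0.6.0 and mm10, and the annotation release and any removal of duplicates are not given in the sources used here. The deposited RPKM equal the counts over the mouse's total and 1 length per gene. Symbols came from GENCODE M21 (46488 of 46983 identifiers found, 37902 in the same version).

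Counts were tested with edgeR 4.0.16 in R 4.3.3 (TMM, filterByExpr, quasi-likelihood F-test, Benjamini-Hochberg over 15949 genes). The standard error is the log2 fold change over the square root of F, and log2 CPM had a prior count of 2. Corrected counts are -N log(1 - count/N), with N the possible read starts, at most 0.9 of them used. Single genes were also compared by exact permutation tests, in scipy 1.17.1. Alternatives were DESeq2 1.42.0, other scalings and filters, limma 3.58.1 on RPKM (log2, pseudocount 1 or 0.1), a replicate block, the cardiomyocyte score, corrected counts and each mouse left out. The tests were checked on simulated data.

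The 10 genes, the other lists and the tests were chosen with earlier results of these data known. Named genes are the 10, the shuttle, flavoprotein and thiolase genes, genes past the threshold in a list, defining cell markers, and the 5 genes most correlated with Acadl. The labels give 1 mouse per sample, so p-values cover the spread between mice.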

Additional observations from a re-analysis of the deposited data

How the results depend on the processing

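The 10 genes kept positive log2 fold changes under every other scaling, filter and tool tried, and Acadl kept its call under each of those. DESeq2 called 819 of 14595 genes (5.61%) and 3 of the 10 enzymes, Acadl, Acads (adjusted p = 0.0486) and Eci2 (adjusted p = 0.0193). The replicate numbers did not pair the mice (correlations of same-numbered mice -0.13 to 0.09), and with a replicate block 113 genes and 0 of the 10 were called, Acadl at an adjusted p of 0.0851. With the cardiomyocyte score in the fit, the counts were 31 and 0, with a median of 0.0627 over the 10 genes, and the same covariate on corrected counts also gave 31 and 0. The corrected counts of the principal transcript gave a median of 0.14. With a mouse left out in turn, 86 to 492 genes and 0 to 1 of the 10 were called, the median over the 10 was 0.09 to 0.11, and 0 to 3 ratios passed. Values near 0 turned negative in Acadvl (-0.0200 with the covariate, -0.0116 on corrected counts with it, and from -0.0055 without ketogenic mouse 2 to 0.0360 without ketogenic mouse 5), in Acadm (-0.0394 with the covariate, -0.0405 on corrected counts with it) and in Hadhb (-0.0010 on corrected counts with it). The causes were not tested. The 10 genes had at least 326 reads in every mouse.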

Other observations

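Peroxisomal beta-oxidation and the regulators of the pathway held no called gene. Of 15 peroxisomal genes, 12 were tested, 10 had a positive log2 fold change, and the median was 0.06. Of 15 regulators, 12 were tested, with a median of 0.04, and 3 of them, named here after their values were seen, were higher at an unadjusted p under 0.05, against 8.57% of all tested genes. Ppargc1a, a coactivator of mitochondrial genes, was at 0.52 (edgeR adjusted p = 0.112), Pparg, a fatty acid-sensing receptor, at 0.27 (adjusted p = 0.259), and Ppara, its relative in muscle and liver, at 0.72 (adjusted p = 0.207) with a mean of only 13.8 normalized counts on the control diet.

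The genes whose log2 CPM over the 10 mice was most like that of Acadl were Vwa8 (Pearson r = 0.97), Evi5l (0.93), the processed pseudogene Gm6223 (0.93), Ngly1 (0.93) and Ormdl3 (0.92). The points share their libraries and the 2 diets, and r is given as a description. Vwa8, which encodes a mitochondrial ATPase, was itself higher on the ketogenic diet (log2 fold change 0.53, edgeR adjusted p = 0.0130), and the other 4 did not pass the test. Of the other 9 enzymes, Eci2 was the most like Acadl, with r = 0.69 and place 572 of 15948 genes, and Acadm the least, with r = 0.14.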
